A study of Homo sapiens with 30 samples.

Results

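Cholesterol and fatty acids are made from acetyl-CoA by enzymes of the cytosol and the endoplasmic reticulum, and 31 genes of these pathways were examined in human colorectal cancer cells depleted of BRD8 or TIP60. The genes were chosen by name and matched to the gene symbols of the deposited tables, which listed 60617 genes. They comprise 18 enzymes of the sterol pathway, 7 enzymes of fatty acid synthesis and desaturation, and 6 genes of sterol-dependent control and sterol transfer. All 31 passed the filter on low counts in both cell lines. They lie on many chromosomes, for example HMGCS1 (ENSG00000112972) on chromosome 5 from 43289395 to 43313512 on the minus strand, FASN (ENSG00000169710) on chromosome 17 from 82078333 to 82098332 on the minus strand and INSIG1 (ENSG00000186480) on chromosome 7 from 155297776 to 155310235 on the plus strand (GRCh38, GENCODE 29), and all values are sums over a whole gene.

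The sterol pathway joins acetyl units into mevalonate, turns mevalonate into isoprenoid units, condenses these into squalene and closes squalene into lanosterol, which a chain of demethylases, reductases and isomerases converts into cholesterol. Transcription of most of these enzymes, and of the enzymes of fatty acid synthesis, is driven by the sterol regulatory element binding proteins (SREBPs), the products of SREBF1 and SREBF2. SCAP escorts SREBPs from the endoplasmic reticulum for activation when sterols are scarce, and the INSIG proteins hold the complex back when sterols are plentiful; INSIG1 is itself an SREBP target.

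HCT116 and SW480, 2 established colorectal cancer lines, were transfected with 10 nM of siBRD8-6 or siBRD8-36 against BRD8, of siTIP60-2 or siTIP60-11 against TIP60, or of a control siRNA (siControl), and RNA was collected at 48 h. TIP60 is the histone acetyltransferase encoded by KAT5, and BRD8 is a bromodomain subunit of its complex. RNA of 30 libraries, 3 per siRNA and line, was sequenced from 100 ng of total RNA as reads of 60 bases. Per the labels, HCT116 was grown in McCoy's 5A and SW480 in Leibovitz's L-15 medium, so line and medium cannot be told apart, and the labels do not say whether replicates were separate cultures, so the p-values may measure technical spread alone.

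The libraries held 13.4 to 18.6 M expected counts in HCT116 and 7.07 to 11.7 M in SW480, the 3 control libraries of SW480 being the least deep. BRD8 averaged 8.73 ± 0.505 and 5.95 ± 0.507 CPM (counts scaled to library size by TMM within a line, ± SD, n = 3) with its siRNAs in HCT116, against 41.9 ± 3.39 CPM in control cells, and KAT5 averaged 3.57 ± 0.0379 and 4.80 ± 0.159 CPM with the TIP60 siRNAs, against 48.5 ± 1.85 CPM. In SW480, BRD8 averaged 13.4 ± 1.00 and 11.6 ± 0.623 CPM, against 54.7 ± 4.07 CPM in control cells, and KAT5 averaged 3.16 ± 0.765 and 5.39 ± 0.290 CPM, against 39.5 ± 1.85 CPM. With siBRD8-36, KAT5 was also lower, at 39.0 ± 1.60 CPM in HCT116 and 29.7 ± 0.915 CPM in SW480. KAT5 shares 38.6% of its exon bases with RNASEH2C on the opposite strand, which ranged from 12.8 to 150 TPM. The strand setting of the counting is not given, and the part of RNASEH2C reads in the KAT5 values was not tested. Of 8 colorectal epithelial markers, summed TPM lay between 3557 and 6986 in HCT116 and between 3065 and 5292 in SW480. These sums were carried by keratins and EPCAM. CDX1 was near 0 in both lines (at most 0.13 and 0.11 TPM) and VIL1 in HCT116 (at most 0.43 TPM). In SW480 the median was 1.79 TPM for VIL1 and 4.43 TPM for CDH1, against 35.6 TPM for CDH1 in HCT116. The 6 fibroblast markers summed to at most 29.7 and 10.2 TPM and the 6 leukocyte markers to at most 28.5 and 6.65 TPM. COL1A1 was the highest fibroblast marker, with medians of 13.4 TPM in HCT116 and 3.11 TPM in SW480 (at most 29 and 7.56 TPM). CD68 was the highest leukocyte marker, with medians of 5.64 and 1.44 TPM (at most 27 and 5.02 TPM). COL1A2, COL3A1, DCN, LUM and PTPRC were at 0 counts in SW480.

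The levels in control cells were set side by side first, because they frame the responses of the lines. Sterol enzymes were mostly lower in HCT116 than in SW480 control cells, and the enzymes that make saturated and monounsaturated fatty acids were higher. Of the 18 sterol enzymes, 3 were higher and 15 lower in HCT116, with a median log2 difference of -0.82, and of the 7 fatty acid enzymes 5 were higher and 2 lower, with a median of 0.75. Over all 17411 genes tested, 41.5% were higher and 37% lower, with a median of 0.08, so a difference between these lines was the rule. The 31 genes counted 11 higher and 20 lower.

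Levels per transcript length can be compared between genes in TPM. The summed TPM of the 18 sterol enzymes was 1062, 991 and 1043 in the HCT116 control libraries, against 1663, 1589 and 1697 in the SW480 control libraries. The 7 fatty acid enzymes summed to 1077, 814 and 1169 TPM in HCT116, against 651, 610 and 647 TPM in SW480. The ratio of the sums averaged 1.03 ± 0.167 in HCT116 and 2.60 ± 0.0366 in SW480 control cells (SD, n = 3), and the lines did not overlap.

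The largest differences in control cells were those of STARD4, ACAT2 and EBP. EBP, the isomerase of the sterol ring, had 37.4, 43.0 and 35.7 CPM in HCT116 control cells, against 175, 190 and 172 CPM in SW480 control cells (HCT116 minus SW480 -2.12 ± 0.0827 on the log2 scale ± SE, adjusted p = 6.92e-22, edgeR quasi-likelihood test). STARD4, a carrier of cholesterol between membranes, had 71.3, 63.2 and 70.6 CPM, against 414, 401 and 403 CPM (-2.47 ± 0.0730, adjusted p = 2.52e-25). ACAT2, the cytosolic thiolase that joins acetyl-CoA units, averaged 35.1 ± 3.06 CPM in HCT116 and 166 ± 4.50 CPM in SW480 (-2.15 ± 0.0607, adjusted p = 7.00e-26). FASN, the fatty acid synthase, stood the other way, with 932, 765 and 979 CPM in HCT116 control cells, against 333, 329 and 343 CPM in SW480 control cells (1.51 ± 0.0764, adjusted p = 3.96e-18). No library of one line reached the range of the other for any of these 4 genes, in CPM scaled within each line. By TPM, SCD, the stearoyl-CoA desaturase, was the most abundant gene of the set in HCT116 control cells, at 520 ± 94.7 TPM, and in SW480 control cells it stood at 350 ± 9.61 TPM beside FDPS, the farnesyl diphosphate synthase, at 361 ± 7.72 TPM.

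**Figure D1:**
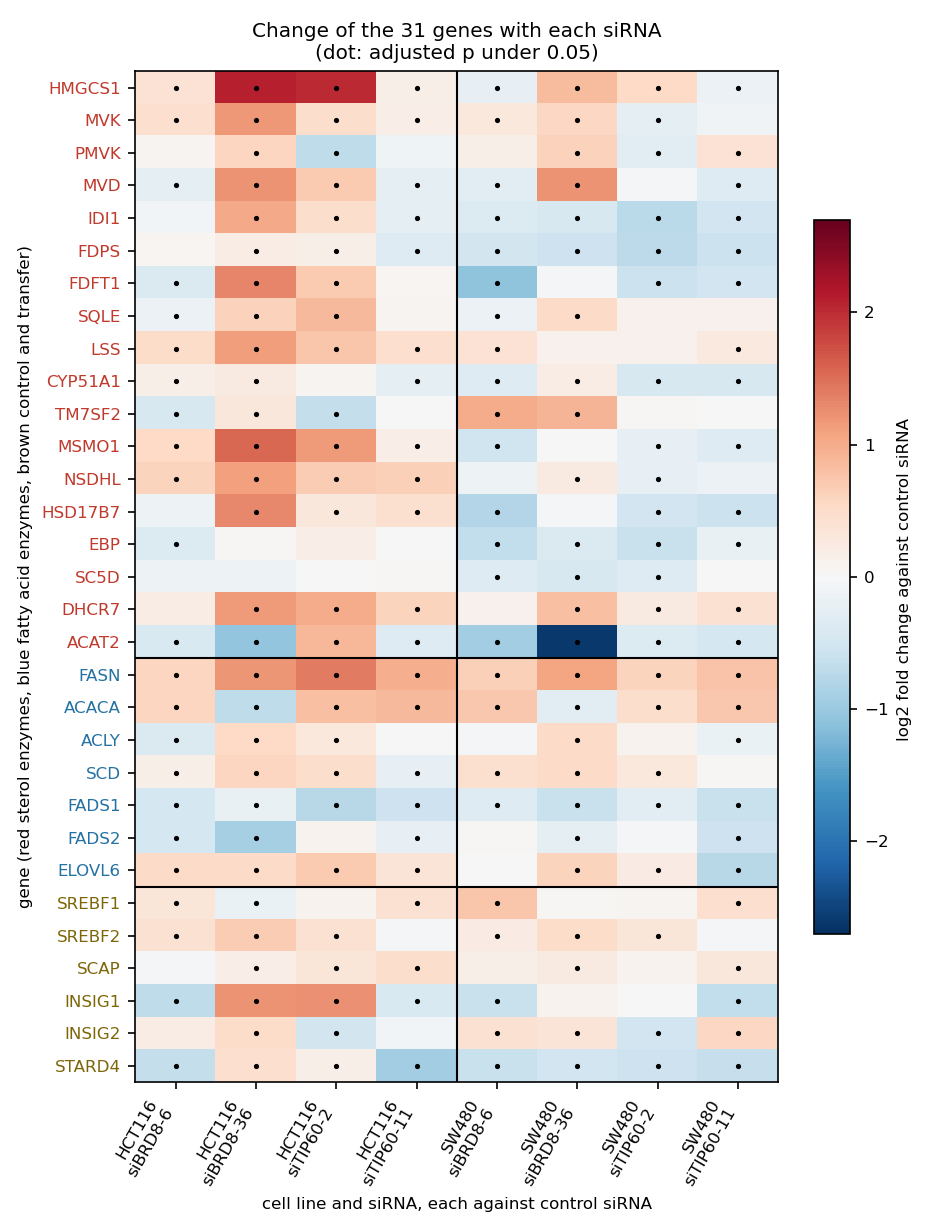
Log2 fold change against control siRNA of the 31 genes (down the page, grouped by role) with each of the 4 siRNAs in HCT116 and in SW480 (across), as colour from lower to higher, with a mark where the change passed the test at an adjusted p of 0.05 (edgeR, n = 3 libraries per group). Sterol enzymes are mostly higher with siBRD8-36 and siTIP60-2 in HCT116, where 15 and 13 of 18 passed upwards, and 12 of 18 are lower with siBRD8-6 and with siTIP60-2 in SW480 (6 and 5 on unscaled TPM).

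Depletion of BRD8 in HCT116 raised a run of sterol enzymes, and most of them rose far more with siBRD8-36 than with siBRD8-6. In bulk RNA, fewer cells of a kind and less RNA per cell cannot be told apart. With both siRNAs (each passing at an adjusted p of 0.05 in the same direction), 9 of the 31 genes were higher and 2 lower, where 12.2% of all 15919 genes tested were called in each direction. The sterol enzymes gave 6 of the 9 rises, HMGCS1, MVK, LSS, CYP51A1, MSMO1 and NSDHL, and 1 of the falls, ACAT2. FASN, the elongase ELOVL6 and the transcription factor gene SREBF2 also rose, and the desaturase gene FADS2 fell. The median of the mean log2 change of both siRNAs was 0.47 for the 18 sterol enzymes, 0.07 for the 7 fatty acid enzymes and -0.02 for all genes tested.

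HMGCS1, the synthase at the entry to the mevalonate pathway, had 122, 121 and 118 CPM with siBRD8-6 and 408, 375 and 378 CPM with siBRD8-36, against 93.9, 86.9 and 92.2 CPM in HCT116 control cells. It rose by 0.40 ± 0.0587 (log2 ± SE, adjusted p = 1.35e-05, edgeR) with siBRD8-6 and by 2.09 ± 0.0591 (adjusted p = 2.12e-15) with siBRD8-36. The 3 groups did not overlap, and the siBRD8-36 libraries stood far above the others. MSMO1, the methylsterol monooxygenase of the demethylation steps, had 84.7, 81.4 and 83.1 CPM and 177, 163 and 163 CPM, against 57.2, 59.7 and 54.5 CPM in control cells (0.54 ± 0.0531, adjusted p = 1.05e-07, and 1.56 ± 0.0525, adjusted p = 1.87e-14). LSS, the cyclase that makes lanosterol, had 79.0, 78.8 and 76.1 CPM with siBRD8-6 and 120, 112 and 132 CPM with siBRD8-36, against 56.1, 53.3 and 56.7 CPM. All 6 depleted libraries lay above the 3 control libraries for both genes, and LSS rose by 0.49 ± 0.0600 (adjusted p = 1.60e-06) and by 1.13 ± 0.0593 (adjusted p = 7.25e-12). NSDHL, the dehydrogenase that works after MSMO1, rose by 0.60 ± 0.0732 (adjusted p = 1.67e-06) and by 1.10 ± 0.0715 (adjusted p = 1.49e-10). MVK, the mevalonate kinase, had 25.8, 29 and 26.1 CPM and 43.5, 45.2 and 44.2 CPM, against 19.6, 19.6 and 19.5 CPM (0.46 ± 0.0674, adjusted p = 1.35e-05, and 1.18 ± 0.0650, adjusted p = 1.53e-11). CYP51A1, the lanosterol demethylase, moved least of those called, by 0.20 ± 0.0446 over both siRNAs (adjusted p = 0.0314). Its call was lost without siBRD8-6 replicate 1 (adjusted p = 0.0658) or 2 (0.136), without control replicate 1 (0.0515) or 2 (0.0691), and with no filter on low counts (0.0812).

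The promoters of the 5 sterol enzymes that rose most with both BRD8 siRNAs are given because these genes moved together, and that of SREBF2 because it codes for the factor of the pathway and rose as well. They are RefSeq sequences on GRCh38.p14 from 250 bases before to 50 bases after a transcription start, written 5′ to 3′ along the gene, with capitals marking the CCAAT box (CCAAT, or ATTGG for the reverse strand) and the sterol regulatory element searched for (TCACNCCAC on either strand). The windows are chr5:43313363-43313662 on the minus strand for HMGCS1, chr12:109573544-109573843 on the plus strand for MVK, chr21:46228725-46229024 on the minus strand for LSS, chr4:165327419-165327718 on the plus strand for MSMO1, chrX:152830813-152831112 on the plus strand for NSDHL and chr22:41832855-41833154 on the plus strand for SREBF2.
HMGCS1: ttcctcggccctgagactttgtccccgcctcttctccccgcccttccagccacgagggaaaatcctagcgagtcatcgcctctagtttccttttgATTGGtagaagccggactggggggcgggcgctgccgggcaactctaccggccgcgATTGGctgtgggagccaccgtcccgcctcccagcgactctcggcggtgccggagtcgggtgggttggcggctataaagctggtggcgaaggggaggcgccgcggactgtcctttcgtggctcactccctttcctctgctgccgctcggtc
MVK: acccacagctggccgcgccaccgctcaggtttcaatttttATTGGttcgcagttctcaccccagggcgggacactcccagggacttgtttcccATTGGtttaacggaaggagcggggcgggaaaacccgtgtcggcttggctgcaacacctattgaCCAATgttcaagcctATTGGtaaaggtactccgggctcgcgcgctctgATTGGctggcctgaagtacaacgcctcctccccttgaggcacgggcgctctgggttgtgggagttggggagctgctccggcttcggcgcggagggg
LSS: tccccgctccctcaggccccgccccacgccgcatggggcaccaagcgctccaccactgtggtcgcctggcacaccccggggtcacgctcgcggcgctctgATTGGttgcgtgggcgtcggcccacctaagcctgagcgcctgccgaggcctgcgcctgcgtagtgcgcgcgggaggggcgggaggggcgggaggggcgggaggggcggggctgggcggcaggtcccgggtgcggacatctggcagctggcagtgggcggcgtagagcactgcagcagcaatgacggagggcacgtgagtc
MSMO1: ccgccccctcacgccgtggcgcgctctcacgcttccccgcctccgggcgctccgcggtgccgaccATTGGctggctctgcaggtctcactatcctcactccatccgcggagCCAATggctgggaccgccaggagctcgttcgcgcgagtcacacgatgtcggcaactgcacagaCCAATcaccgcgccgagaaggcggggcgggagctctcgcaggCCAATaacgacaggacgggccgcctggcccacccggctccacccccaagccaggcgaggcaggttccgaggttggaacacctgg
NSDHL: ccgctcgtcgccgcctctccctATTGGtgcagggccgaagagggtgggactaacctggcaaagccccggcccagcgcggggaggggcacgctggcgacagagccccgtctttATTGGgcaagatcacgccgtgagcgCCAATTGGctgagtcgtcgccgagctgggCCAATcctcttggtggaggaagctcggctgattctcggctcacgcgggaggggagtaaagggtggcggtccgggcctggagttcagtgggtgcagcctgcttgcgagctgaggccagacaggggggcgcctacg
SREBF2: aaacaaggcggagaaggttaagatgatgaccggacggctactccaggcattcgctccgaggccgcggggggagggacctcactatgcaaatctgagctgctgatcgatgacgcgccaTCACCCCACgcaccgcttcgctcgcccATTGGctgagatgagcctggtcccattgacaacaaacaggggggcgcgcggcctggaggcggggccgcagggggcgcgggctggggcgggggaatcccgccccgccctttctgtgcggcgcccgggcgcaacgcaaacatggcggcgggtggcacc
MVK and NSDHL each hold 5 CCAAT matches, MSMO1 holds 4, HMGCS1 holds 2, and LSS and SREBF2 hold 1 each. In NSDHL a forward and a reverse match overlap. CYP51A1, also called higher but not shown, holds 0 CCAAT matches, as does a second HMGCS1 window (chr5:43313132-43313431). FDPS, MVD and EBP, not called with both BRD8 siRNAs in HCT116, hold 3 each. Whether the box bears on the calls was not tested. The sterol regulatory element letters were found in SREBF2 alone, starting 133 bases before the start site. Variants of these letters were not searched for.

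Promoter windows were found for 27 of the 31 genes, and windows for FDFT1, SQLE, ACAT2 and FASN were not used here. A CCAAT box lay in 13 of the 15 sterol enzymes with a window (86.7%), in 4 of 6 fatty acid enzymes (66.7%) and in 39.7% of all 27305 genes in the table. A GC box (GGGCGG on either strand) lay in 14 of the 15 sterol enzymes (93.3%) and in 48.3% of all genes, NSDHL being the sterol enzyme without one. The sterol regulatory element letters lay in 1 of the 27 genes and in 1.39% of all genes, and an E-box (CACGTG) in 4 of 27 (14.8%) and in 8.77% of all genes. These counts describe letters in a window around an annotated start and say nothing of binding, and several genes have more than 1 window.

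Other sterol enzymes in HCT116 moved with siBRD8-36 alone or in opposite directions with the 2 BRD8 siRNAs. FDFT1, the squalene synthase, had 111, 116 and 110 CPM with siBRD8-6 and 348, 387 and 361 CPM with siBRD8-36, against 143, 160 and 136 CPM in control cells. It fell by 0.38 with siBRD8-6 (log2, SE 0.0603, adjusted p = 3.34e-05) and rose by 1.32 ± 0.0596 with siBRD8-36 (adjusted p = 8.80e-13), and the control libraries lay between the depleted groups. MVD, the mevalonate diphosphate decarboxylase, had 56.6, 55.6 and 54.8 CPM and 143, 167 and 153 CPM, against 58.2, 82.4 and 59.7 CPM (-0.26 ± 0.101, adjusted p = 0.0458, and 1.22 ± 0.0979, adjusted p = 1.49e-08). IDI1, the isomerase of the isoprenoid unit, averaged 62.8 ± 2.30 CPM with siBRD8-6 and 135 ± 3.32 CPM with siBRD8-36, against 66.4 ± 5.56 CPM in control cells. The change of IDI1 passed the test with siBRD8-36 (1.03 ± 0.0576, adjusted p = 1.89e-11), whereas the siBRD8-6 libraries overlapped the control libraries. HSD17B7, a reductase of the demethylation steps, likewise overlapped the control range with siBRD8-6 and rose by 1.29 ± 0.0943 with siBRD8-36 (adjusted p = 8.85e-10). DHCR7, the last reductase of one branch of the pathway, rose by 1.15 ± 0.0832 with siBRD8-36 (adjusted p = 1.48e-09) and stood at 0.19 ± 0.0840 with siBRD8-6 (adjusted p = 0.0765). SQLE, the squalene epoxidase, had 74.4, 68.6 and 67.2 CPM and 122, 119 and 119 CPM, against 80.3, 72.0 and 79.9 CPM in control cells (-0.15 ± 0.0562, adjusted p = 0.0375, with overlap, and 0.63 ± 0.0551, adjusted p = 1.07e-08, without). In all, siBRD8-6 raised 6 of the 18 sterol enzymes and lowered 6, with a median of -0.01, and siBRD8-36 raised 15 and lowered 1, with a median of 1.07. Of all genes, 24.8% were higher and 25.7% lower with siBRD8-6, and 28.8% higher and 29.4% lower with siBRD8-36.

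ACAT2 was the sterol enzyme that fell. It had 28.4, 25.9 and 25 CPM with siBRD8-6 and 15.8, 17.3 and 17.4 CPM with siBRD8-36, against 34.2, 38.5 and 32.6 CPM in HCT116 control cells (-0.41 ± 0.0725, adjusted p = 0.000118, and -1.06 ± 0.0763, adjusted p = 7.08e-10). Its 6 depleted libraries lay below all control libraries. ACAT2 shares 26.5% of its exon bases with SOD2 and 9.23% with TCP1 on the opposite strand, and the strand setting of the counting is not given in the sources used here. With siBRD8-6, TCP1 changed by 0.17 ± 0.0517 and SOD2 by -0.08 ± 0.0507. With siBRD8-36, TCP1 changed by 0.27 ± 0.0517 and SOD2 by 0.23 ± 0.0503. The part of reads from SOD2 and TCP1 in these ACAT2 values was not tested.

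Control genes moved in part with the enzymes. INSIG1 had 39.9, 42.8 and 38.2 CPM with siBRD8-6 and 151, 147 and 152 CPM with siBRD8-36, against 65.1, 67.0 and 62.4 CPM in HCT116 control cells. It fell by 0.69 (SE 0.0587, adjusted p = 1.76e-08) with siBRD8-6 and rose by 1.21 ± 0.0554 (adjusted p = 1.10e-12) with siBRD8-36, and the 3 groups did not overlap. STARD4 showed the same split, at -0.64 ± 0.0668 (adjusted p = 2.29e-07) and 0.45 ± 0.0641 (adjusted p = 6.05e-06). SREBF2 had 335, 335 and 326 CPM and 402, 390 and 413 CPM, against 255, 233 and 263 CPM in control cells, and all depleted libraries lay above the control libraries (0.41 ± 0.0501, adjusted p = 1.77e-06, and 0.68 ± 0.0501, adjusted p = 8.83e-10). SREBF1, whose product is known mainly for fatty acid genes, had 310, 328 and 326 CPM with siBRD8-6 and 217, 216 and 242 CPM with siBRD8-36, against 254, 246 and 268 CPM (0.33 ± 0.0550, adjusted p = 6.04e-05, and -0.18 ± 0.0552, adjusted p = 0.00776). SREBF1 therefore stood above control with one siRNA and below it with the other, the reverse of INSIG1. INSIG2 rose with siBRD8-36 (0.49 ± 0.0853, adjusted p = 7.30e-05) and stood at 0.20 ± 0.0867 with siBRD8-6 (adjusted p = 0.0627), and SCAP stood at 0.18 ± 0.0699 (adjusted p = 0.0328) and -0.06 ± 0.0704 (adjusted p = 0.533).

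Among the fatty acid enzymes in HCT116, FASN and ELOVL6 rose with both BRD8 siRNAs and FADS2 fell, and ACACA and ACLY split. FASN had 1311, 1384 and 1278 CPM with siBRD8-6 and 1969, 2091 and 2073 CPM with siBRD8-36, against 932, 765 and 979 CPM in control cells, with no overlap of any pair of groups (0.57 ± 0.0719, adjusted p = 2.45e-06, and 1.20 ± 0.0726, adjusted p = 5.99e-11). ELOVL6, which extends palmitate, averaged 69.9 ± 1.33 and 70.7 ± 1.97 CPM, against 49.2 ± 2.88 CPM (0.51 ± 0.0564, adjusted p = 5.27e-07, and 0.52 ± 0.0563, adjusted p = 1.82e-07). ELOVL6 thus changed by nearly the same amount with both siRNAs, unlike HMGCS1. SCD had 2103, 2050 and 2012 CPM and 2876, 2601 and 2793 CPM, against 1872, 1623 and 2004 CPM (0.16 ± 0.0649, adjusted p = 0.0417, and 0.59 ± 0.0650, adjusted p = 2.53e-07). Over both siRNAs SCD was not called (adjusted p = 0.0769), but it was without control replicate 3 (0.00878), with DESeq2 (0.0371) and with a replicate block (0.0394). ACACA, the acetyl-CoA carboxylase that commits carbon to fatty acids, had 258, 252 and 256 CPM with siBRD8-6 and 113, 107 and 97.3 CPM with siBRD8-36, against 177, 151 and 183 CPM. ACACA rose with siBRD8-6 (0.58 ± 0.0638, adjusted p = 4.09e-07) and fell with siBRD8-36 (-0.69 ± 0.0652, adjusted p = 3.10e-08), the control libraries lying between the depleted groups. In TPM, which corrects for length, ACACA with siBRD8-36 had 54.2, 46.4 and 40.5, against 58.7, 47.8 and 57.8 in control cells, with overlap. Its listed transcript length averaged 3301 ± 185 bases, against 4605 ± 345 bases, and the part of length in the fall in counts was not tested. ACLY, which supplies cytosolic acetyl-CoA from citrate, did the reverse (-0.40 ± 0.0602, adjusted p = 2.12e-05, and 0.54 ± 0.0598, adjusted p = 2.43e-07). FADS2, the first desaturase of the polyunsaturated pathway, had 12.6, 12.8 and 12.1 CPM and 9.94, 9.14 and 8.88 CPM, against 16.8, 15.8 and 19.5 CPM (-0.47 ± 0.0890, adjusted p = 0.000204, and -0.90 ± 0.0919, adjusted p = 8.77e-08). Over both siRNAs the call of FADS2 was lost on log2(TPM + 1) with limma (-0.79, adjusted p = 0.0608).

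The direct difference of the BRD8 siRNAs in HCT116, siBRD8-6 minus siBRD8-36, was higher for 4 of the 31 genes and lower for 24, where 28.3% of all genes were higher and 28.4% lower. It was lower for 15 of the 18 sterol enzymes and higher for 1, with a median of -0.73. The largest were INSIG1 (-1.90 ± 0.0574, adjusted p = 5.13e-15), FDFT1 (-1.70 ± 0.0604, adjusted p = 3.79e-14) and HMGCS1 (-1.68 ± 0.0579, adjusted p = 2.47e-14). ACACA was the largest the other way (1.27 ± 0.0651, adjusted p = 5.73e-12). Both siRNAs lowered BRD8, and KAT5 was also lower with siBRD8-36; whether that difference bears on the sterol genes was not tested.

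**Figure D2:**
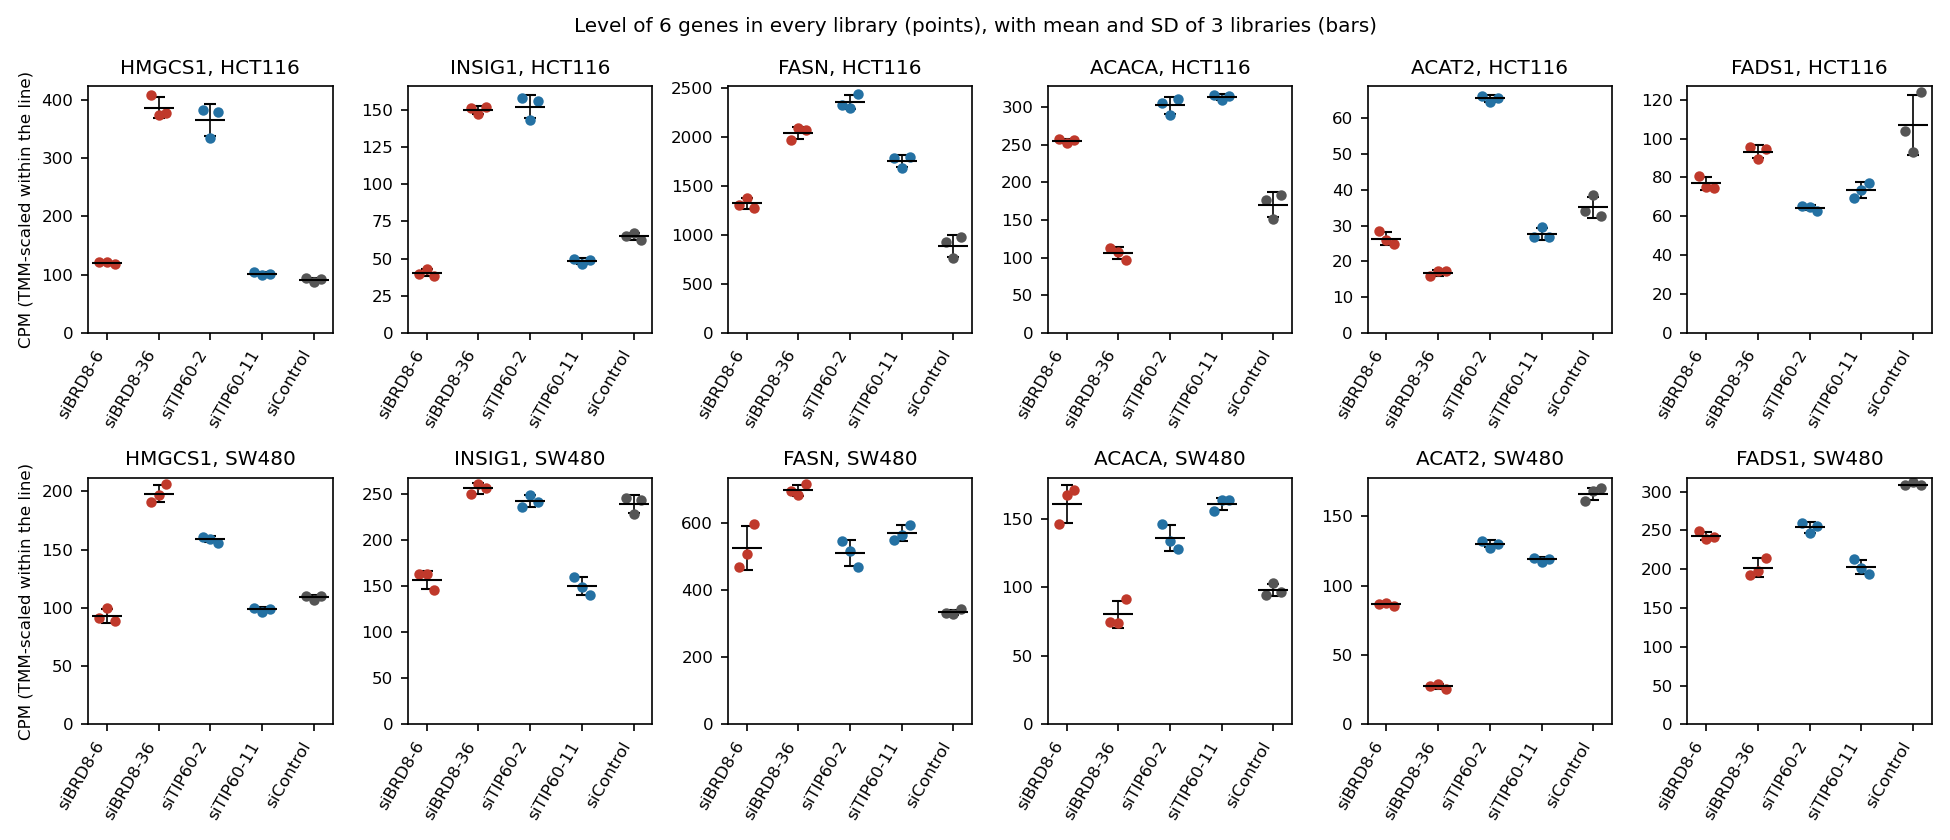
CPM of HMGCS1, INSIG1, FASN, ACACA, ACAT2 and FADS1 in every library (points), with the mean and SD of 3 libraries (bars), for the 4 depleting siRNAs and then siControl, in HCT116 and in SW480. HMGCS1 in HCT116 stands at 334 to 408 CPM with siBRD8-36 and siTIP60-2 and at 122 CPM or less in every other library of that line.

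TIP60 depletion in HCT116 also divided by siRNA: HMGCS1, INSIG1 and SQLE stood high with siTIP60-2 and close to or below control with siTIP60-11. With both siRNAs, 9 of the 31 genes were higher and 1 lower, where 13.7% of all genes were higher and 14.1% lower. LSS, MSMO1, NSDHL, HSD17B7 and DHCR7 of the sterol enzymes rose, as did FASN, ACACA, ELOVL6 and SCAP, and FADS1 fell. The median change of both siRNAs was 0.30 for sterol enzymes and 0.14 for fatty acid enzymes, against -0.03 for all genes. One by one, siTIP60-2 raised 13 of the 18 sterol enzymes and lowered 2, and siTIP60-11 raised 7 and lowered 5, where 24.3% of all genes were higher and 25.4% lower with siTIP60-2, and 25.9% higher and 27.7% lower with siTIP60-11. On log2(TPM + 1) with limma, siTIP60-11 raised 2 and lowered 5, and 2 sterol enzymes rose with both siRNAs, against 5 by counts.

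HMGCS1 had 383, 334 and 380 CPM with siTIP60-2 and 105, 98.8 and 101 CPM with siTIP60-11, against 93.9, 86.9 and 92.2 CPM in HCT116 control cells. It rose by 2.01 ± 0.0590 (adjusted p = 1.26e-14) and by 0.16 ± 0.0592 (adjusted p = 0.0301). No library of either siRNA fell in the control range, yet HMGCS1 was not called over both siRNAs (adjusted p = 0.0532); it was called without siTIP60-2 replicate 2 (0.031), with the stricter filter (0.0290) and with a replicate block (0.0202). INSIG1 had 158, 143 and 156 CPM with siTIP60-2 and 49.6, 46.1 and 49.1 CPM with siTIP60-11, against 65.1, 67.0 and 62.4 CPM, so that it lay above control with one siRNA (1.23 ± 0.0554, adjusted p = 3.32e-12) and below it with the other (-0.42 ± 0.0581, adjusted p = 5.18e-06). SQLE had 148, 137 and 141 CPM with siTIP60-2, where it rose (0.87 ± 0.0549, adjusted p = 2.80e-10), and 79.8, 81.6 and 84.0 CPM with siTIP60-11, against 80.3, 72.0 and 79.9 CPM, where the groups overlapped.

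DHCR7, NSDHL and LSS rose with both TIP60 siRNAs. DHCR7 had 183, 177 and 194 CPM with siTIP60-2 and 131, 144 and 142 CPM with siTIP60-11, against 88.3, 88.4 and 98.1 CPM in HCT116 control cells (1.01 ± 0.0832, adjusted p = 1.93e-08, and 0.60 ± 0.0836, adjusted p = 8.78e-06). NSDHL had 36.7, 36.3 and 37.9 CPM and 34.7, 36.7 and 35.3 CPM, against 20.8, 23.6 and 24.3 CPM, with the depleted groups close together and above every control library (0.69 ± 0.0728, adjusted p = 2.44e-07, and 0.64 ± 0.0735, adjusted p = 6.03e-07). LSS had 90.6, 92.6 and 96.7 CPM and 78.2, 77.6 and 73.4 CPM, against 56.1, 53.3 and 56.7 CPM (0.75 ± 0.0596, adjusted p = 6.12e-09, and 0.46 ± 0.0603, adjusted p = 2.77e-06). MSMO1 and HSD17B7 were called with less margin. MSMO1 rose by 0.66 ± 0.0471 over both siRNAs (adjusted p = 0.023), and lost its call with no filter (0.155) and without siTIP60-11 replicate 1 (0.0673) or 3 (0.0639) or control replicate 1 (0.0557) or 3 (0.0955). HSD17B7 rose by 0.37 ± 0.0869 in counts (adjusted p = 0.0227), and lost its call without siTIP60-2 replicate 1 (0.0517) or 3 (0.142) or control replicate 1 (0.0961). In TPM HSD17B7 averaged 14.5 ± 2.16 and 14.4 ± 0.787, against 14 ± 2.86 in control cells, a change of 0.06 with limma (adjusted p = 1). Its listed transcript length was 1364 ± 73.4 and 1423 ± 67.8 bases, against 1154 ± 164 bases. LSS (0.118) and MSMO1 (0.175) were not called on TPM either.

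ACAT2 split between the TIP60 siRNAs, and TM7SF2 fell with siTIP60-2. ACAT2 had 66.4, 64.5 and 65.8 CPM with siTIP60-2 and 26.7, 29.7 and 26.9 CPM with siTIP60-11, against 34.2, 38.5 and 32.6 CPM (0.90 ± 0.0680, adjusted p = 2.99e-09, and -0.34 ± 0.0727, adjusted p = 0.000668). Its overlapping neighbour TCP1 changed by -0.72 ± 0.0522 with siTIP60-2 and by 0.21 ± 0.0517 with siTIP60-11, and SOD2 by 0.14 ± 0.0504 and -0.57 ± 0.0517. TM7SF2, a sterol reductase, fell with siTIP60-2 (-0.65 ± 0.0883, adjusted p = 5.33e-06) and overlapped control with siTIP60-11. The difference siTIP60-2 minus siTIP60-11 was higher for 12 of the 18 sterol enzymes and lower for 2, with a median of 0.37, and for all 31 genes it was higher for 20 and lower for 4, where 23.5% of all genes were higher and 22.5% lower. HMGCS1 (1.85 ± 0.0585, adjusted p = 3.50e-14), INSIG1 (1.66 ± 0.0567, adjusted p = 8.19e-14) and ACAT2 (1.24 ± 0.0696, adjusted p = 6.36e-11) differed most.

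Among the fatty acid enzymes in HCT116, FASN, ACACA and ELOVL6 rose with both TIP60 siRNAs and FADS1 fell. FASN had 2334, 2298 and 2440 CPM with siTIP60-2 and 1791, 1687 and 1802 CPM with siTIP60-11, against 932, 765 and 979 CPM in control cells, with all 6 depleted libraries above every control library (1.40 ± 0.0729, adjusted p = 2.10e-11, and 0.98 ± 0.0723, adjusted p = 1.64e-09). ACACA had 305, 289 and 310 CPM and 316, 309 and 314 CPM, against 177, 151 and 183 CPM (0.82 ± 0.0638, adjusted p = 4.31e-09, and 0.88 ± 0.0639, adjusted p = 1.34e-09). Here both siRNAs raised ACACA by nearly the same amount. ELOVL6 rose by 0.70 ± 0.0561 (adjusted p = 7.68e-09) and by 0.35 ± 0.0569 (adjusted p = 3.92e-05). SCD had 2494, 2526 and 2590 CPM with siTIP60-2 and 1553, 1564 and 1597 CPM with siTIP60-11, against 1872, 1623 and 2004 CPM, so that it stood above control with one siRNA (0.47 ± 0.0650, adjusted p = 7.37e-06) and below it with the other (-0.22 ± 0.0649, adjusted p = 0.00727). FADS1, the delta-5 desaturase, had 65.2, 64.8 and 62.8 CPM and 69.2, 73.7 and 77.3 CPM, against 104, 93.3 and 124 CPM, all depleted libraries below control (-0.74 ± 0.0770, adjusted p = 2.29e-07, and -0.55 ± 0.0767, adjusted p = 7.08e-06). SREBF2 averaged 335 ± 6.02 CPM with siTIP60-2 and 246 ± 7.32 CPM with siTIP60-11, against 250 ± 15.9 CPM, and passed the test with siTIP60-2 (0.42 ± 0.0501, adjusted p = 1.24e-06). SREBF1 averaged 274 ± 14.5 and 339 ± 1.60 CPM, against 256 ± 11.0 CPM, and passed with siTIP60-11 (0.41 ± 0.0550, adjusted p = 4.66e-06). SCAP rose with both (0.32 ± 0.0696, adjusted p = 0.000705, and 0.48 ± 0.0696, adjusted p = 1.07e-05).

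The summed levels show the same split. With siBRD8-36 and siTIP60-2 the sterol enzymes of HCT116 summed to 1869 ± 55.4 and 1592 ± 62.3 TPM, and with siBRD8-6 and siTIP60-11 to 1065 ± 19.1 and 1009 ± 16.1 TPM, against 1032 ± 37.0 TPM in control cells (SD, n = 3). The fatty acid enzymes summed to 1558 ± 100 and 1646 ± 60.6 TPM, and to 1188 ± 33.9 and 1149 ± 36.8 TPM, against 1020 ± 185 TPM, where control replicate 2 at 814 TPM lay apart from the other control libraries at 1077 and 1169 TPM. The ratio of sterol to fatty acid sums lay between 0.841 and 1.25 in the depleted libraries and between 0.892 and 1.22 in the control libraries of this line.

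**Figure D3:**
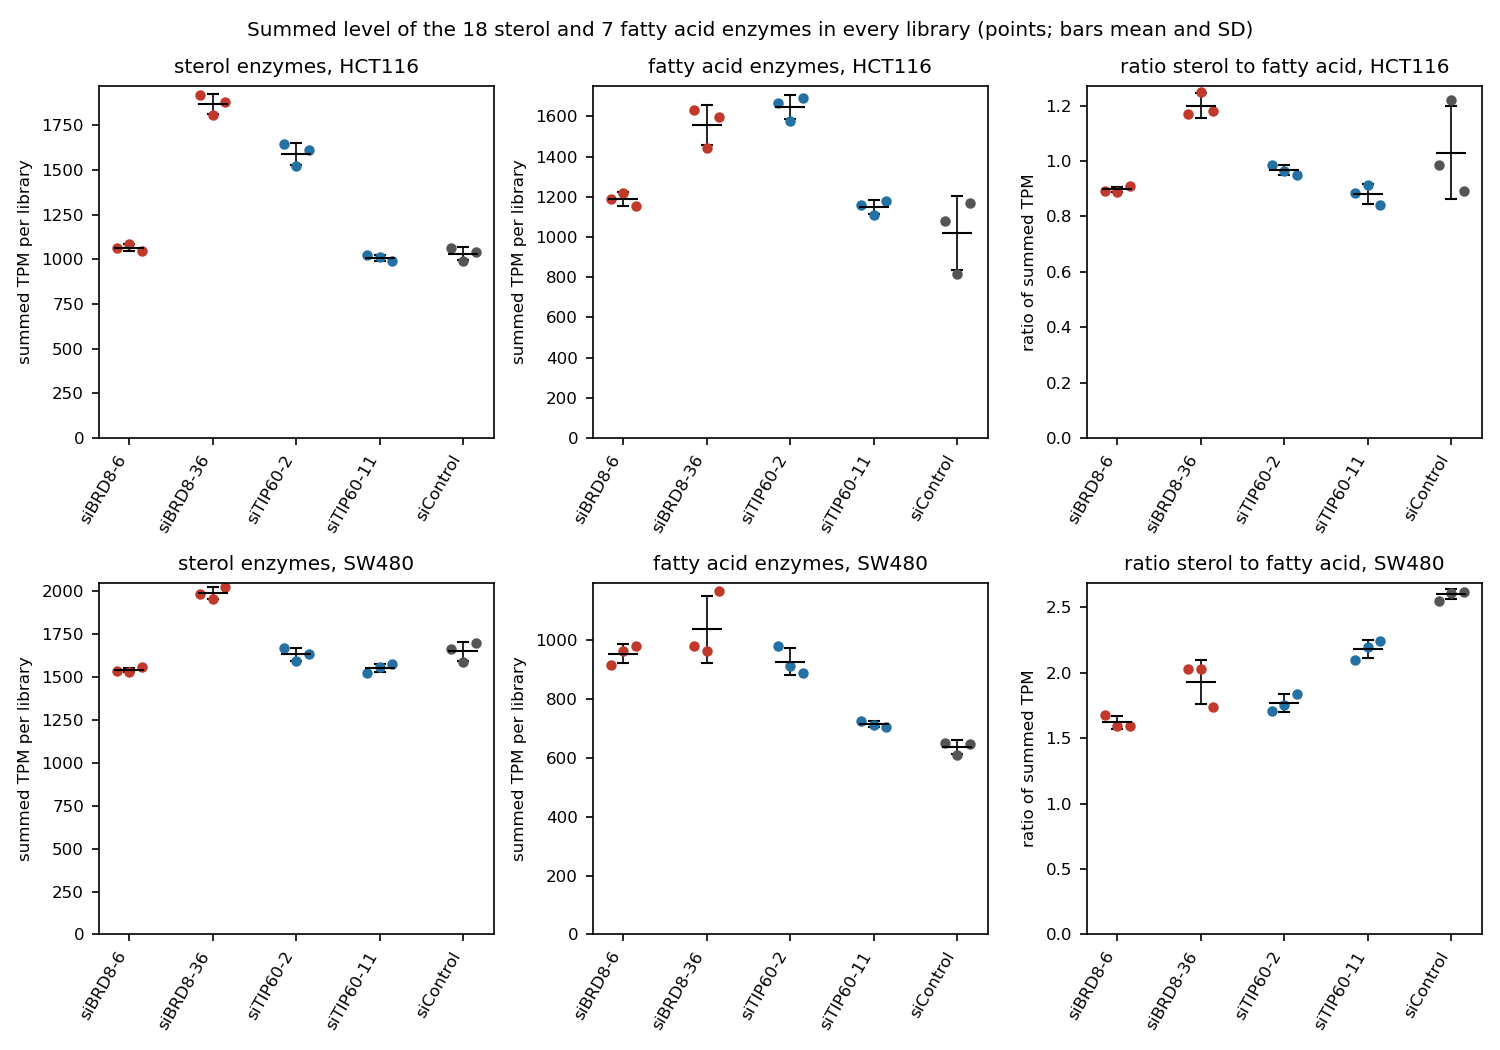
Summed TPM of the 18 sterol enzymes, of the 7 fatty acid enzymes and the ratio of these sums in every library (points), with mean and SD of 3 libraries (bars), in HCT116 (top) and SW480 (bottom). In SW480 every depleted library has a ratio of 2.24 or less, and the control libraries lie at 2.55 to 2.62.

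In SW480, BRD8 depletion lowered 5 of the 18 sterol enzymes with both siRNAs, and ACAT2 fell furthest. It raised 2 of them, a count near the share of all genes called higher. With both BRD8 siRNAs 6 of the 31 genes were higher and 7 lower, where 12.9% of all 15277 genes were higher and 14% lower. Of the sterol enzymes MVK and TM7SF2 rose, and IDI1, FDPS, EBP, SC5D and ACAT2 fell. FASN, SCD, SREBF2 and INSIG2 also rose, and FADS1 and STARD4 fell. The median change was -0.01 for sterol enzymes, 0.25 for fatty acid enzymes and -0.00 for all genes. The processing matters in this line. On log2(TPM + 1) with limma and without TMM, the median of all genes lay at 0.23 with BRD8 and 0.18 with TIP60 siRNAs. Of the called genes 85.3% and 82.3% were higher there, against 47.9% and 48.6% by counts with TMM. Unscaled TPM below stands for this setting, which also differs in length correction and test. The part of TMM alone was not tested. Directions in SW480 by counts with TMM are relative to the bulk of genes.

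ACAT2 changed most. It had 87.0, 87.4 and 85.4 CPM with siBRD8-6 and 27.6, 29 and 25.2 CPM with siBRD8-36, against 161, 168 and 170 CPM in SW480 control cells (-0.94 ± 0.0557, adjusted p = 7.97e-14, and -2.61 ± 0.0627, adjusted p = 5.60e-22). The 3 groups were far apart, and TCP1, which overlaps ACAT2, also fell, by 0.40 with siBRD8-6 and by 0.15 with siBRD8-36. SOD2 stood at 0.06 ± 0.0677 and 0.54 ± 0.0659; the part of reads from these neighbours in the ACAT2 values was not tested. FDPS had 215, 206 and 214 CPM and 212, 205 and 187 CPM, against 294, 301 and 295 CPM (-0.49 ± 0.0568, adjusted p = 4.91e-08, and -0.56 ± 0.0569, adjusted p = 2.77e-09). EBP had 112, 106 and 121 CPM and 147, 143 and 122 CPM, against 175, 190 and 172 CPM (-0.66 ± 0.0748, adjusted p = 4.09e-08, and -0.39 ± 0.0740, adjusted p = 8.01e-05). For both genes every depleted library lay below every control library. STARD4 had 294, 275 and 235 CPM and 274, 298 and 282 CPM, against 414, 401 and 403 CPM (-0.60 ± 0.0727, adjusted p = 1.66e-07, and -0.51 ± 0.0725, adjusted p = 1.49e-06). IDI1 fell by 0.36 and by 0.43 (adjusted p = 0.000124 and 1.12e-05), and SC5D, the lathosterol desaturase, by 0.35 and by 0.44 (adjusted p = 9.55e-05 and 2.96e-06).

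TM7SF2 rose in this line, with 39.2, 37.4 and 38.9 CPM with siBRD8-6 and 37.6, 39.1 and 33.0 CPM with siBRD8-36, against 20.3, 19.7 and 17.6 CPM in SW480 control cells (1.00 ± 0.0928, adjusted p = 7.31e-10, and 0.92 ± 0.0931, adjusted p = 2.39e-09). The 2 siRNAs gave like values, both well above control. MVK rose by 0.42 ± 0.0824 over both siRNAs (adjusted p = 0.0228), a call lost with DESeq2 (0.0674), without siBRD8-6 replicate 3 (0.181) and without control replicate 3 (0.14). HMGCS1 had 91.3, 99.7 and 88.5 CPM with siBRD8-6 and 191, 197 and 206 CPM with siBRD8-36, against 110, 107 and 110 CPM. It stood above control with siBRD8-36 (0.86 ± 0.0564, adjusted p = 4.72e-13) and below it with siBRD8-6 (-0.23 ± 0.0582, adjusted p = 0.00169). On unscaled TPM the siBRD8-6 change was 0.20, a call in the other direction (adjusted p = 0.0456, limma). MVD rose with siBRD8-36 (1.21 ± 0.0956, adjusted p = 4.43e-11) and fell with siBRD8-6 (-0.29 ± 0.106, adjusted p = 0.0219), as in HCT116. SQLE had 101, 104 and 99.9 CPM and 162, 157 and 166 CPM, against 113, 108 and 119 CPM (-0.16 ± 0.0591, adjusted p = 0.0276, and 0.11 in unscaled TPM, with siBRD8-6; 0.51 ± 0.0577, adjusted p = 1.89e-08, with siBRD8-36). LSS had 106, 120 and 124 CPM and 95.1, 93.8 and 100 CPM, against 92.7, 84.2 and 91.4 CPM, and passed with siBRD8-6 alone (0.39 ± 0.0700, adjusted p = 4.24e-05, against 0.11 ± 0.0707, adjusted p = 0.201, with siBRD8-36). In total siBRD8-6 raised 3 of the 18 sterol enzymes and lowered 12, and siBRD8-36 raised 9 and lowered 5, where 25.7% and 28.3% of all genes were higher and 26.3% and 28.5% lower. On unscaled TPM siBRD8-6 raised 6 and lowered 6, and siBRD8-36 raised 11 and lowered 2. Over both siRNAs the falls of IDI1, EBP, SC5D, FADS1 and STARD4 were not called on unscaled TPM.

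Among control genes in SW480, INSIG1 had 163, 163 and 146 CPM with siBRD8-6 and 250, 261 and 256 CPM with siBRD8-36, against 246, 228 and 243 CPM. It fell with siBRD8-6 (-0.60 ± 0.0589, adjusted p = 1.88e-09) and stood at 0.10 ± 0.0578 with siBRD8-36 (adjusted p = 0.160). SREBF2 had 187, 183 and 195 CPM and 224, 223 and 241 CPM, against 164, 161 and 162 CPM, all depleted libraries above control (0.22 ± 0.0560, adjusted p = 0.00207, and 0.50 ± 0.0557, adjusted p = 1.70e-08). SREBF1 had 294, 292 and 317 CPM with siBRD8-6, where it rose (0.74 ± 0.0579, adjusted p = 2.88e-11), and 202, 180 and 174 CPM with siBRD8-36, against 183, 175 and 184 CPM, where the groups overlapped. INSIG2 rose by 0.41 ± 0.0802 (adjusted p = 9.89e-05) and by 0.35 ± 0.0803 (adjusted p = 0.000481).

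Of the fatty acid enzymes in SW480, FASN and SCD rose with both BRD8 siRNAs and FADS1 fell. FASN had 470, 509 and 599 CPM with siBRD8-6 and 696, 685 and 717 CPM with siBRD8-36, against 333, 329 and 343 CPM (0.65 ± 0.0695, adjusted p = 1.25e-08, and 1.06 ± 0.0697, adjusted p = 7.59e-13). SCD had 2151, 2232 and 2159 CPM and 2232, 2190 and 2484 CPM, against 1623, 1615 and 1619 CPM (0.43 ± 0.0516, adjusted p = 8.12e-08, and 0.51 ± 0.0517, adjusted p = 2.92e-09). Both genes were above every control library in all 6 depleted libraries. ACACA again split, at 0.72 ± 0.0762 (adjusted p = 1.22e-08) with siBRD8-6 and -0.29 ± 0.0789 (adjusted p = 0.00288) with siBRD8-36. FADS1 had 249, 239 and 242 CPM and 192, 198 and 215 CPM, against 308, 312 and 308 CPM (-0.35 ± 0.0542, adjusted p = 5.57e-06, and -0.61 ± 0.0546, adjusted p = 2.16e-10).

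The difference of the BRD8 siRNAs in SW480, siBRD8-6 minus siBRD8-36, was negative for most sterol enzymes. It was higher for 2 of 18 and lower for 12, with a median of -0.42, and for the 31 genes higher for 6 and lower for 17, where 27% of all genes were higher and 25.9% lower. ACAT2 (1.67 ± 0.0637, adjusted p = 3.93e-18), MVD (-1.51 ± 0.0940, adjusted p = 4.12e-13) and HMGCS1 (-1.09 ± 0.0559, adjusted p = 2.15e-15) differed most.

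TIP60 depletion in SW480 lowered more of the sterol enzymes than it raised. With both siRNAs 3 of the 31 genes were higher and 10 lower, where 11.5% of all genes were higher and 12.1% lower. DHCR7, FASN and ACACA rose. IDI1, FDPS, FDFT1, CYP51A1, MSMO1, HSD17B7, EBP and ACAT2 of the sterol enzymes fell, as did FADS1 and STARD4. The median change was -0.19 for sterol enzymes, -0.04 for fatty acid enzymes and 0.01 for all genes. On unscaled TPM the sterol median was 0.00 beside 0.18 for all genes, and 3 sterol enzymes were called lower and 3 higher.

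IDI1 had 54.2, 55.1 and 59.5 CPM with siTIP60-2 and 68.1, 66.1 and 61.2 CPM with siTIP60-11, against 92.7, 93.6 and 92.5 CPM in SW480 control cells (-0.72 ± 0.0742, adjusted p = 7.67e-09, and -0.51 ± 0.0727, adjusted p = 1.44e-06). FDPS had 180, 175 and 193 CPM and 195, 193 and 209 CPM, against 294, 301 and 295 CPM (-0.70 ± 0.0573, adjusted p = 1.17e-10, and -0.58 ± 0.0569, adjusted p = 2.96e-09). FDFT1 had 116, 114 and 119 CPM and 118, 118 and 127 CPM, against 168, 180 and 171 CPM (-0.57 ± 0.0622, adjusted p = 2.19e-08, and -0.51 ± 0.0618, adjusted p = 9.75e-08). In these 3 genes the TIP60 groups lay close together and below every control library. STARD4 averaged 277 ± 11.5 and 262 ± 27.4 CPM, against 406 ± 7.10 CPM (-0.55 ± 0.0727, adjusted p = 7.69e-07, and -0.63 ± 0.0727, adjusted p = 9.18e-08). HSD17B7 fell by 0.51 and by 0.59, and CYP51A1 by 0.43 with each siRNA. EBP fell by 0.40 over both siRNAs (adjusted p = 0.0445), a call lost in 7 of 9 fits that left out 1 library (without siTIP60-2 replicate 1, any siTIP60-11 replicate or any control replicate, adjusted p between 0.0535 and 0.228), with the stricter filter (0.0517) and with a replicate block (0.0665). MSMO1 fell by 0.28 (adjusted p = 0.0155), a call lost without siTIP60-2 replicate 2 (0.0548) or control replicate 1 (0.116); with siTIP60-2 its unscaled TPM changed by 0.06.

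DHCR7 rose in SW480 as in HCT116, with 262, 244 and 255 CPM and 269, 283 and 297 CPM, against 222, 199 and 217 CPM (0.25 ± 0.0559, adjusted p = 0.000434, and 0.41 ± 0.0557, adjusted p = 6.32e-07). HMGCS1 had 161, 159 and 156 CPM with siTIP60-2 and 100, 96.9 and 98.8 CPM with siTIP60-11, against 110, 107 and 110 CPM (0.54 ± 0.0569, adjusted p = 1.24e-08, and -0.15 ± 0.0580, adjusted p = 0.0411). The siTIP60-2 libraries lay above control and the siTIP60-11 libraries just below it. SQLE had 123, 127 and 117 CPM and 129, 118 and 124 CPM, against 113, 108 and 119 CPM, with overlap in both cases (adjusted p = 0.130 and 0.0851). LSS averaged 97.4 ± 7.57 and 108 ± 6.29 CPM, against 89.4 ± 4.59 CPM, and passed with siTIP60-11 (0.27 ± 0.0703, adjusted p = 0.00204). INSIG1 had 236, 249 and 241 CPM with siTIP60-2, overlapping control, and 160, 149 and 140 CPM with siTIP60-11, against 246, 228 and 243 CPM, where it fell (-0.67 ± 0.0590, adjusted p = 3.03e-10). SREBF2 averaged 203 ± 9.03 and 157 ± 7.06 CPM, against 162 ± 1.84 CPM, and SREBF1 190 ± 6.10 and 249 ± 1.87 CPM, against 181 ± 5.17 CPM. SREBF2 passed with siTIP60-2 (0.32 ± 0.0560, adjusted p = 2.68e-05) and SREBF1 with siTIP60-11 (0.46 ± 0.0580, adjusted p = 2.08e-07), the same siRNAs as in HCT116. One by one siTIP60-2 raised 2 of the 18 sterol enzymes and lowered 12, and siTIP60-11 raised 3 and lowered 10, where 25.1% and 23.4% of all genes were higher and 24.4% and 24.2% lower. On unscaled TPM siTIP60-2 raised 4 and lowered 5, and siTIP60-11 raised 4 and lowered 6. Over both siRNAs the falls of CYP51A1, MSMO1, HSD17B7, EBP, ACAT2, FADS1 and STARD4 were not called on unscaled TPM, and TCP1, the neighbour of ACAT2, fell by 0.83 (adjusted p = 4.11e-07).

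FASN had 547, 516 and 470 CPM with siTIP60-2 and 551, 565 and 596 CPM with siTIP60-11, against 333, 329 and 343 CPM in SW480 control cells (0.61 ± 0.0695, adjusted p = 5.84e-08, and 0.77 ± 0.0695, adjusted p = 7.76e-10). ACACA had 146, 134 and 128 CPM and 156, 164 and 164 CPM, against 94.5, 103 and 96.7 CPM, with no overlap (0.48 ± 0.0770, adjusted p = 1.24e-05, and 0.72 ± 0.0762, adjusted p = 1.52e-08). SCD averaged 1976 ± 20.7 and 1664 ± 67.2 CPM, against 1619 ± 4.17 CPM, and passed with siTIP60-2 (0.29 ± 0.0516, adjusted p = 4.11e-05). ELOVL6 rose with siTIP60-2 (0.23 ± 0.0824, adjusted p = 0.0223) and fell with siTIP60-11, to 18, 17.9 and 18.1 CPM, against 29.7, 30.5 and 30.2 CPM (-0.74 ± 0.0890, adjusted p = 9.43e-08). The difference siTIP60-2 minus siTIP60-11 in SW480 was higher for 9 and lower for 9 of the 31 genes, where 23.4% of all genes were higher and 21.9% lower, and was largest for INSIG2 (-1.08 ± 0.0807, adjusted p = 1.49e-11), ELOVL6 (0.97 ± 0.0846, adjusted p = 3.14e-10) and INSIG1 (0.69 ± 0.0585, adjusted p = 1.91e-10).

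In sums, the sterol enzymes of SW480 stood at 1542 ± 14.2 TPM with siBRD8-6, 1989 ± 35.6 with siBRD8-36, 1634 ± 37.0 with siTIP60-2 and 1554 ± 25.2 with siTIP60-11, against 1650 ± 55.2 TPM in control cells. The fatty acid enzymes summed to 953 ± 33.1, 1036 ± 114, 926 ± 46.8 and 714 ± 11.3 TPM in the same order, against 636 ± 22.7 TPM, with every depleted library above every control library. SCD makes up most of this sum in control cells, at 350 ± 9.61 TPM, and FASN stood at 63.2 ± 4.58 TPM there. With siTIP60-11, 2 of the 7 enzymes rose and 4 fell, with a median of -0.18, as for the sterol enzymes. The ratio of both sums, which does not depend on the scaling between libraries, averaged 1.62 ± 0.0493, 1.93 ± 0.170, 1.77 ± 0.0669 and 2.18 ± 0.0693, against 2.60 ± 0.0366 in control cells. It was lower in all 12 depleted libraries than in any control library of this line.

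The response of the lines was compared directly. The signed log2 change of HCT116 minus that of SW480 (both siRNAs, interaction term) was called positive for 7 of the 31 genes and negative for 3 with BRD8 siRNAs, where 4.58% of all genes were positive and 8.95% negative, and positive for 6 and negative for 0 with TIP60 siRNAs, where 5.61% were positive and 7.52% negative. A positive value means a higher change in HCT116, which can be a greater rise there or a greater fall in SW480. For TIP60 no gene of the set was negative at an unadjusted p under 0.05 (0 genes, edgeR), 0 were called so with DESeq2, and on unscaled TPM 3 were called positive and 1 negative. Both comparisons use the same control libraries. The positive genes were HMGCS1, FDFT1, MSMO1, NSDHL, HSD17B7, FDPS and ACAT2 for BRD8, and HMGCS1, FDFT1, MSMO1, NSDHL, HSD17B7 and ELOVL6 for TIP60. FDPS averaged 0.14 in HCT116 and -0.52 in SW480 with BRD8 siRNAs, and FADS2, one of the negative genes, averaged -0.69 in HCT116 and -0.11 in SW480. On unscaled TPM the calls of HMGCS1 and HSD17B7 were lost for both targets, and those of SREBF1 for BRD8 and ELOVL6 for TIP60. MSMO1 differed most, by 1.24 ± 0.0739 for BRD8 (adjusted p = 7.25e-11) and 0.91 ± 0.0741 for TIP60 (adjusted p = 0.000145). For BRD8, TM7SF2 differed the other way, by -1.09 ± 0.111 (adjusted p = 8.13e-05), ACAT2 by 0.97 ± 0.0771 (adjusted p = 0.000101) and FDFT1 by 0.96 ± 0.0746 (adjusted p = 1.22e-06). For TIP60, FDFT1 at 0.89 ± 0.0745 (adjusted p = 3.89e-05) and HSD17B7 at 0.88 ± 0.127 (adjusted p = 0.000188) followed MSMO1. ACAT2 fell in both lines and fell further in SW480. HMGCS1 for TIP60 (0.84 ± 0.0690, adjusted p = 0.0274) lost its call without HCT116 siTIP60-11 replicate 1 (0.0783), HCT116 control replicate 2 (0.0619), SW480 siTIP60-11 replicate 2 (0.0566) or SW480 control replicate 1 (0.055). Without SW480 control replicate 3, 10 genes were called for TIP60.

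The processing moved the split of calls between lines. Of all genes called for BRD8, 33.8% were higher in HCT116 with TMM, 49.2% with size factors of the RLE kind and 14.1% on unscaled TPM, and for TIP60 42.7%, 52.7% and 17%. The median of all genes lay at -0.10 and -0.06 with TMM and at -0.20 and -0.18 on unscaled TPM.

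**Figure D4:**
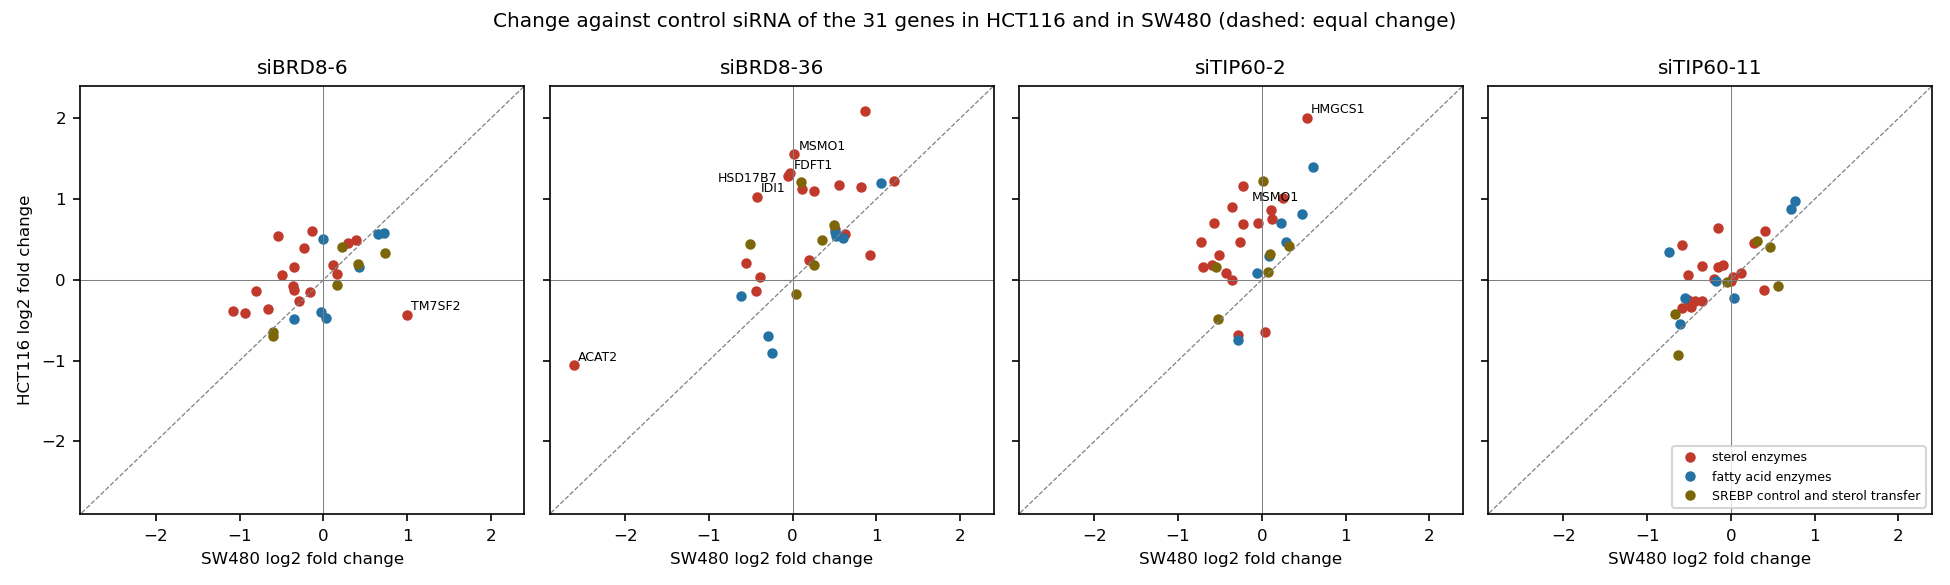
Log2 fold change against control siRNA in HCT116 (vertical axis) and in SW480 (horizontal axis) of the 31 genes, 1 panel per siRNA, coloured by role; the dashed line marks equal change. With siBRD8-36 and siTIP60-2 most sterol enzymes lie above the line, HMGCS1 at 2.09 and 2.01 in HCT116 beside 0.86 and 0.54 in SW480, and ACAT2 with siBRD8-36 lies at -1.06 beside -2.61.

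BRD8 and TIP60 depletion were set against each other through the mean of both siRNAs. In HCT116 the BRD8 mean was higher than the TIP60 mean for 17 of the 31 genes and lower for 11, where 30% of all genes were higher and 31.7% lower, and in SW480 higher for 18 and lower for 4, where 29.7% were higher and 30.2% lower. The mean of ACAT2 was lower with BRD8 siRNAs in both lines (-1.02 ± 0.0522, adjusted p = 5.32e-12, in HCT116 and -1.35 ± 0.0420, adjusted p = 8.95e-20, in SW480), and so was that of ACACA (-0.90 ± 0.0452, adjusted p = 3.82e-12, and -0.38 ± 0.0526, adjusted p = 6.47e-07). PMVK, the phosphomevalonate kinase, was the third in HCT116, higher with BRD8 siRNAs (0.72 ± 0.118, adjusted p = 0.000122). In SW480 the means of TM7SF2 (0.94 ± 0.0627, adjusted p = 4.60e-13) and MVD (0.66 ± 0.0701, adjusted p = 8.18e-09) were higher with BRD8 siRNAs. For MVD siBRD8-36 alone stood high, at 82.0 ± 4.90 CPM, against 28.6 ± 3.89 CPM with siBRD8-6. The TIP60 siRNAs gave 34.1 ± 5.56 and 27.7 ± 0.847 CPM. As the siRNAs of a target differed among themselves, these means average unlike values for INSIG1, ACACA, HMGCS1, ACAT2 and MVD. For ACAT2 in HCT116, siBRD8-6 (28.4, 25.9 and 25 CPM) overlapped siTIP60-11 (26.7, 29.7 and 26.9 CPM). There siBRD8-36 stood lowest, at 16.8 ± 0.905 CPM, and siTIP60-2 highest, at 65.6 ± 0.94 CPM. For ACACA in SW480, siBRD8-6 (146, 167 and 171 CPM) overlapped siTIP60-11 (156, 164 and 164 CPM).

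Across all 8 comparisons of 1 siRNA with control, FASN passed upwards in each, and FADS1 passed downwards in each. FASN changes ran between 0.57 and 1.40 in HCT116 and between 0.61 and 1.06 in SW480. FADS1 changes ran between -0.74 and -0.20 in HCT116, where the siBRD8-36 libraries overlapped control, and between -0.61 and -0.28 in SW480, where unscaled TPM with siTIP60-2 stood at 0.09. Of 13888 genes tested in both lines, 207 (1.49%) passed upwards in all 8 and 249 (1.79%) downwards. The 4 comparisons of a line share its control libraries. LSS and DHCR7 were above control in all 8 by sign, and passed in 6 each. ACACA passed upwards in 6 and downwards in 2 by counts, the siBRD8-36 comparisons of both lines, where its TPM averaged 47.0 ± 6.85, against 54.8 ± 6.05 in control cells, in HCT116 and 26.0 ± 2.81, against 26.9 ± 1.00, in SW480, with overlap in both lines. ACAT2 passed downwards in 7 and upwards in 1.

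Genes around these pathways were counted by lists. Of 12 tested genes of sterol uptake, export and storage in HCT116, 0 rose and 6 fell with both BRD8 siRNAs, and 4 rose and 2 fell with both TIP60 siRNAs (all genes, 12.2% in each direction for BRD8, and 13.7% higher and 14.1% lower for TIP60). Of 13 in SW480, 2 rose and 2 fell, and 1 rose and 2 fell (all genes, 12.9% higher and 14% lower for BRD8, and 11.5% and 12.1% for TIP60). These shares over all genes are the background of the lists that follow too, and counts of 1 or 2 in lists of this size lie near it. At an unadjusted p under 0.05 (edgeR) likewise 0 of the 12 rose with both BRD8 siRNAs in HCT116. NPC2, which passes cholesterol to NPC1 in lysosomes, fell with BRD8 siRNAs in HCT116 (-0.31, adjusted p = 0.00137) and SW480 (-0.84, adjusted p = 3.63e-06), and NPC1 fell too (-0.43, adjusted p = 0.0285, and -0.91, adjusted p = 1.18e-07). TMEM97, a sterol-regulated membrane protein, rose with TIP60 siRNAs in both lines (0.64, adjusted p = 6.24e-05, and 0.40, adjusted p = 0.00247).

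Of 9 genes of SREBP processing and sterol-regulated turnover, 1 rose and 2 fell with BRD8 siRNAs and 3 rose and 3 fell with TIP60 siRNAs in HCT116, and 2 rose and 0 fell, and 1 rose and 1 fell, in SW480, where 0 fell with BRD8 siRNAs at an unadjusted p under 0.05 too (edgeR). MBTPS2, the site-2 protease that frees active SREBP, fell with BRD8 siRNAs in HCT116 (-1.07 ± 0.0656, adjusted p = 1.04e-06) and stood at -0.39 ± 0.0578 in SW480 (adjusted p = 0.164). Of 11 genes of the isoprenoid branch and other sterol steps, 4 rose and 1 fell with BRD8 siRNAs and 2 rose and 2 fell with TIP60 siRNAs in HCT116, and 1 rose and 1 fell, and 2 rose and 3 fell, in SW480. NUS1, a subunit of the dolichol-making prenyltransferase, fell with BRD8 siRNAs in HCT116 (-1.16 ± 0.0384, adjusted p = 4.75e-10) and SW480 (-1.20 ± 0.0568, adjusted p = 1.58e-09). CYB5R3, a reductase that feeds electrons to desaturases, rose with both targets in both lines, by 0.68 to 0.70. Of 16 genes of fatty acid supply, elongation and activation, 3 rose and 2 fell with BRD8 siRNAs in each line, and with TIP60 siRNAs 1 rose and 2 fell in HCT116 and 2 rose and 2 fell in SW480. ACSS2, which makes acetyl-CoA from acetate, fell with TIP60 siRNAs in HCT116 (-0.89 ± 0.0502, adjusted p = 1.65e-07) and rose with BRD8 siRNAs in SW480 (0.64 ± 0.0479, adjusted p = 2.27e-09). GPAM, the first acyltransferase of glycerolipid synthesis, rose with TIP60 siRNAs in SW480 (0.95, adjusted p = 5.00e-07), and ELOVL5 fell with BRD8 siRNAs in HCT116 (-0.92 ± 0.0540, adjusted p = 1.06e-06).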

How the data were processed

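RNA of 30 libraries was measured, 3 per siRNA and line. The authors deposited 1 gene table per library with expected counts and TPM, made with Trimmomatic 0.33, STAR 2.7.3a and RSEM 1.3.3 on hg38, per the submitters' processing notes. For the annotation release and the strand setting, the value is not given in the sources used here. Of all deposited expected counts, between 9.13% and 13.1% per library were not whole. Coordinates came from GENCODE 29 (GRCh38).

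Expected counts were rounded and filtered with filterByExpr within each line (for differences between lines, over all libraries), scaled by TMM and tested with edgeR 4.0.16 (quasi-likelihood, all 5 groups of a line in the fit, Benjamini-Hochberg adjustment over all genes) in R 4.3.3. CPM used TMM-scaled libraries. SEs were obtained from each log2 fold change and its F statistic. A gene was called for a target when both siRNAs changed it in the same direction and the larger p passed 0.05 after adjustment; the change given is the mean of both. The members and gene lists were chosen with earlier results of these data known. Genes named were 8 fixed genes (HMGCS1, SQLE, LSS, INSIG1, SREBF1, SREBF2, FASN and SCD), the 4 that rose and 4 that fell most per target and line, the 3 largest differences between siRNAs, targets and lines, and up to 2 per other list and comparison; further genes were added after their values were seen. Alternatives were DESeq2 1.42.0, RLE size factors, a stricter filter (3 libraries at a CPM of 5 or more), no filter, limma 3.58.1 on log2(TPM + 1), a replicate block and leaving out each library. The fit was tested on simulated counts. Certain genes are not reported here.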

Additional observations from a re-analysis of the deposited data

Results flagged for a closer look

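The response to depletion differed between HCT116 and SW480 for 10 genes with BRD8 siRNAs and 6 with TIP60 siRNAs, by the interaction term of an edgeR quasi-likelihood fit over both lines. With BRD8 siRNAs the log2 response in HCT116 minus that in SW480 was 1.24 for MSMO1, 0.97 for ACAT2, 0.96 for FDFT1, 0.93 for HSD17B7, 0.86 for HMGCS1, 0.72 for NSDHL and 0.59 for FDPS, and -1.09 for TM7SF2, -0.64 for FADS2 and -0.38 for SREBF1. With TIP60 siRNAs it was 0.91 for MSMO1, 0.89 for FDFT1, 0.88 for HSD17B7, 0.84 for HMGCS1, 0.81 for NSDHL and 0.74 for ELOVL6. SREBF1 (adjusted p = 0.00646) lost its call without SW480 siBRD8-36 replicate 1 (0.091) or SW480 control replicate 3 (0.332), and with DESeq2 (0.0663), RLE size factors (0.0892), no filter (0.581), the stricter filter (0.146) and limma on TPM (0.131). The lines also differ in medium, and the SW480 control libraries were the shallowest; the part of either in these differences was not tested.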

How the results depend on the processing

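The counts of called genes stayed within 1.5 times of those reported with DESeq2, RLE size factors, no filter, the stricter filter and the replicate block. On log2(TPM + 1) with limma, BRD8 depletion lowered 1 gene in HCT116 and 2 in SW480, against 2 and 7 in the report, and TIP60 depletion in SW480 raised 7 and lowered 3, against 3 and 10. INSIG1 with BRD8 siRNAs in SW480 stood at 0.06 there, against -0.25, neither being called. Leaving out 1 library moved the TIP60 difference between lines, 6 genes, to between 5 and 10, the highest without SW480 control replicate 3. Replicate numbers paired the libraries weakly or not at all. Same-numbered libraries correlated at -0.0585 to 0.143 in HCT116 (median 0.0429), against -0.133 to 0.0882 (median -0.0205) for differently numbered ones. In SW480 the values were -0.157 to 0.175 (median -0.00631), against -0.126 to 0.229 (median -0.00446). The replicate block called 8305 genes with siBRD8-6 in HCT116, against 8040 without it, and 7768 against 7952 in SW480. With the replicate block, HMGCS1 with TIP60 siRNAs (adjusted p = 0.0202) and SCD with BRD8 siRNAs (0.0394) were called in HCT116, and EBP with TIP60 siRNAs in SW480 (0.0665) was not.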

Other observations

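The transcript length that the deposited tables give for ACACA was shorter with siBRD8-36 in HCT116, at 3139, 3262 and 3502 bases, against 4671, 4232 and 4912 bases in control cells. With siBRD8-6 it averaged 5246 ± 185 bases (SD, n = 3). In SW480 it averaged 4287 ± 642 bases with siBRD8-36 and 4140 ± 180 bases in control cells. Whether the isoforms of ACACA differ was not tested.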
